A study of Ovis aries with 9 samples.

Results

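The genes of the sterol regulatory element binding protein (SREBP) pathway for cholesterol and fatty acid synthesis were followed in ovine granulosa cells (GCs) kept at 3 glucose concentrations. The set was a list of 35 gene symbols, taken from the pathway with earlier results of these data known, and a symbol was a member if a gene of that name had a row in the deposited gene table. Of these, 31 were present among the 39157 genes of the table, and FDPS, FDFT1, EBP and SC5D were not found under these symbols and were not analysed here. All 31 passed the filter on low values that left 24365 genes for testing. By role, 6 members catalyse the mevalonate steps, 8 the squalene and sterol steps, 5 form the SREBP control machinery, 9 make, elongate or desaturate fatty acids, and 3 move cholesterol between membranes.

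Each of the 9 libraries was made from total RNA of GCs of thin-tailed Han ewes, the youngest of which were 1 year old. GCs from follicles of 3 to 5 mm in diameter were pooled across ovaries collected at an abattoir, grown for 48 h in DMEM/F12 with fetal bovine serum, held for 8 h without glucose or serum, and then treated for 24 h. The control (CON) libraries received 0 mM glucose, the LOW libraries 8.4 mM and the HIGH libraries 33.6 mM, with 3 libraries a group. Because the cells were pooled before culture, the 3 libraries of a group do not sample different animals, and p-values measure the spread between cultures, which may be technical. In bulk RNA, fewer cells of a type and less RNA per cell cannot be told apart.

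SREBPs are transcription factors that are made as membrane proteins of the endoplasmic reticulum. The escort protein SCAP carries them to the Golgi for cleavage when sterols are scarce, and the INSIG proteins hold SCAP back when sterols are plentiful. SREBP-2, encoded by SREBF2, mainly drives cholesterol synthesis and uptake, and SREBP-1, encoded by SREBF1, mainly drives fatty acid synthesis. In the ovary, cholesterol is the substrate from which granulosa cells make steroid hormones, starting with its side-chain cleavage by CYP11A1.

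Levels are given as FPKM (fragments per kilobase of gene length, relative to the mapped fragments of the library) of the deposited gene table, scaled so that the libraries have the same median over 11689 commonly expressed genes. The FPKM of all genes summed to between 803786 in CON 1 and 1370942 in CON 3, and between 12928 and 14584 genes reached an FPKM of 1. TXNIP, a gene known to respond to glucose, lay at 68.6, 88.8 and 105 FPKM in the control libraries. It lay at 213, 226 and 233 with 8.4 mM and at 180, 205 and 217 with 33.6 mM glucose, above every control library. Of 12 markers of granulosa cells, 9 were in the table, and 5 of these had an FPKM of 1 or more on average. CYP19A1, FOXL2 and AMH were not found under these symbols. CYP11A1 had an FPKM of 141 to 203, the larger part of the granulosa sum given below, while the receptor FSHR had 0.228 to 0.577. Markers of fibroblasts and smooth muscle were far more abundant, with 9 of 9 genes at an FPKM of 1 or more on average. LUM had an FPKM of 1759 to 2291 and TAGLN of 922 to 2835. Their summed FPKM was 4796 to 6897 without glucose, 5568 to 6018 at 8.4 mM and 4684 to 6143 at 33.6 mM, and 3 of the 9 were higher in HIGH than in CON and 3 higher than in LOW at an unadjusted p under 0.05, where 4.1% and 5.21% of all genes were. The granulosa markers had a summed FPKM of 198 to 249 (CON), 193 to 206 (LOW) and 174 to 181 (HIGH), with 2 of 9 lower in HIGH than in CON, where 2.67% of all genes were, and 1 higher in HIGH than in LOW. Leukocyte markers summed to 15.1 to 21.1 over all libraries and epithelial markers to 8.23 to 21.5, while theca markers summed to at most 0.422, endothelial markers to at most 0.176 and oocyte markers to at most 1.17. Of these, 1 of 4 leukocyte and 1 of 3 epithelial markers were lower in HIGH than in CON, and 2 of 3 epithelial markers were lower in HIGH than in LOW, where 2.46% of all genes were. The part of these lists in the results below was not tested. The endothelial CDH5 and the oocyte BMP15 were at 0 in all 9 libraries.

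All members were expressed, INSIG2 only through assembled transcripts of its row. Their mean levels lay between the 55.8th and the 99.2nd percentile of the genes tested. The highest was NPC2, a carrier protein of the lysosome, and the lowest SREBF1. Of the 14 sterol enzymes, 5 had all LOW and HIGH libraries below all CON libraries. This held for 7 of all 31 members and for 0.726% of all genes. In LOW, 29 of 31 members had a fitted level below CON, against 48.6% of all genes tested. The members' median log2 fold change was -0.18 against 0.01 for all genes. In HIGH, 24 of 31 had a fitted level below CON, against 43.7% of all genes, with a median of -0.21 against 0.07. Both comparisons share the CON libraries. Between HIGH and LOW, 18 of 31 members had a fitted value below 0, against 44.5% of all genes, with a median of -0.02 against 0.06.

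**Figure D1:**
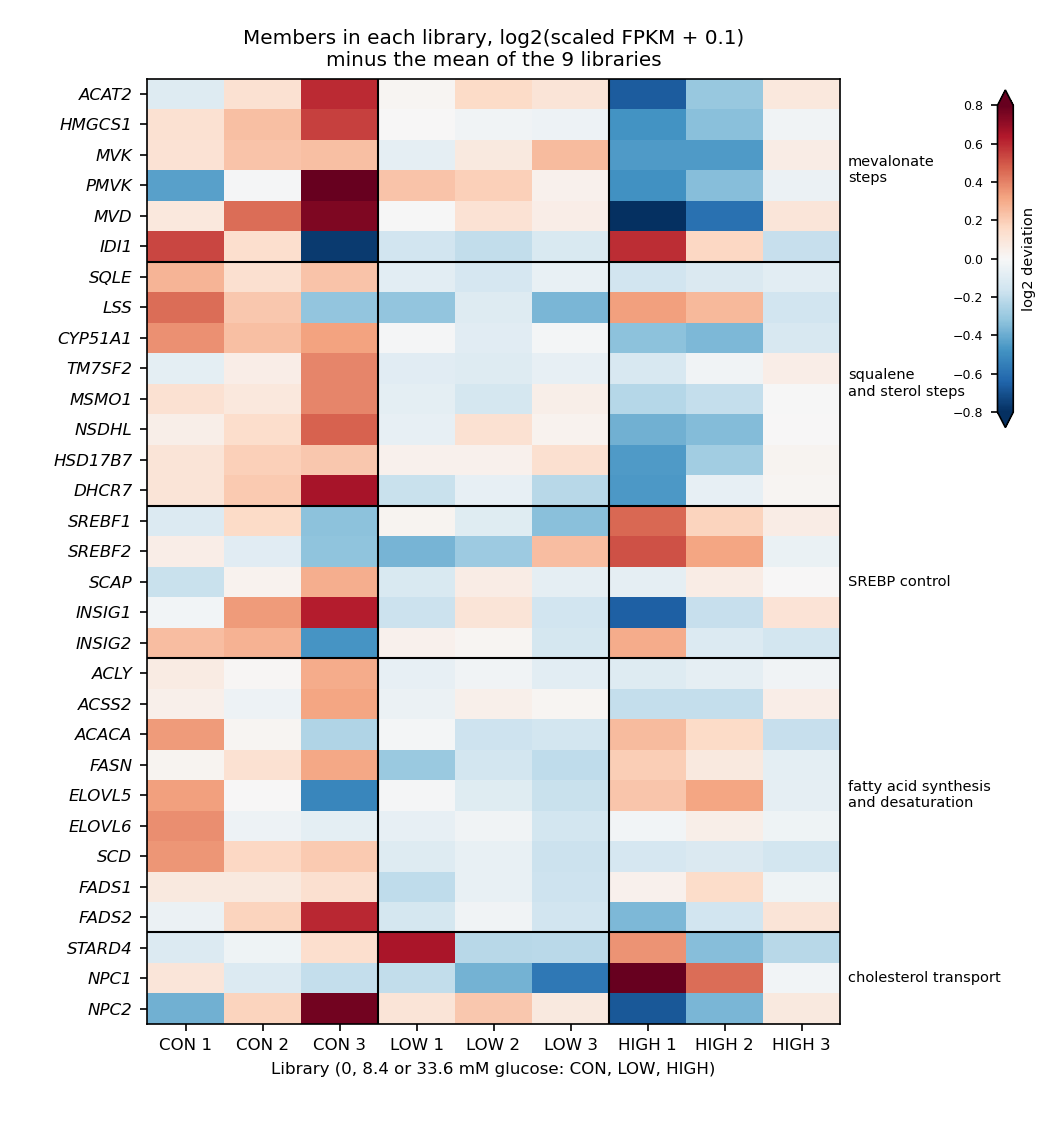
Each cell gives the log2(scaled FPKM + 0.1) of 1 member in 1 library minus its mean over the 9 libraries (red, higher; blue, lower), with members in rows by role and libraries in columns by glucose group. The median deviation over the 31 members was 0.09 to 0.29 for CON, -0.09 to -0.06 for LOW and -0.14 to -0.03 for HIGH.

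With limma, which compares groups gene by gene with a spread shared across genes, 0 of 31 members were called in each of the 3 comparisons at an adjusted p under 0.05 with a log2 fold change beyond 1 in either direction, and the same rule called 0.00821% of all genes in each. Over all 3 groups at once, 0 of 31 members reached an adjusted p under 0.05, against 0.0123% of all genes, and 10 reached an unadjusted p under 0.05, against 5.44% of all genes. At an unadjusted p under 0.05, 5 members were lower in LOW than in CON and 0 higher, where 0.903% and 0.928% of all genes were. In HIGH against CON, 12 members were lower and 1 was higher, where 2.67% and 4.1% of all genes were. In HIGH against LOW, 0 members were lower and 2 were higher, where 2.46% and 5.21% of all genes were. edgeR's quasi-likelihood test on the deposited estimated counts found 5 lower and 0 higher in LOW, 9 and 1 in HIGH against CON, and 2 and 1 in HIGH against LOW at the same unadjusted p. The lower and higher shares of all genes were then 1.02% and 0.804%, 2.65% and 2.86%, and 2.40% and 4.34%.

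DESeq2, the tool of the study's methods, gave an adjusted p under 0.05 to 3 members in LOW against CON (CYP51A1, SQLE and SCD), where it did so for 0.815% of all genes. It did so for 4 in HIGH against CON (the same 3 and HMGCS1) and for 1 in HIGH against LOW (NPC1), where the shares of all genes were 1.55% and 2.74%. Its input here was the table of estimated counts, which is FPKM multiplied by gene span and a library factor, so these values are not numbers of reads. None of the 31 members had an absolute log2 fold change above 1 in any comparison of the limma fit. The limma adjusted p was 1 for all members in LOW against CON and at its lowest 0.470 in HIGH against CON (CYP51A1) and 0.5997 in HIGH against LOW (NPC1). The 95% intervals given with the fold changes are from the same fit, and an interval that leaves out 0 is the same as an unadjusted p under 0.05.

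**Figure D2:**
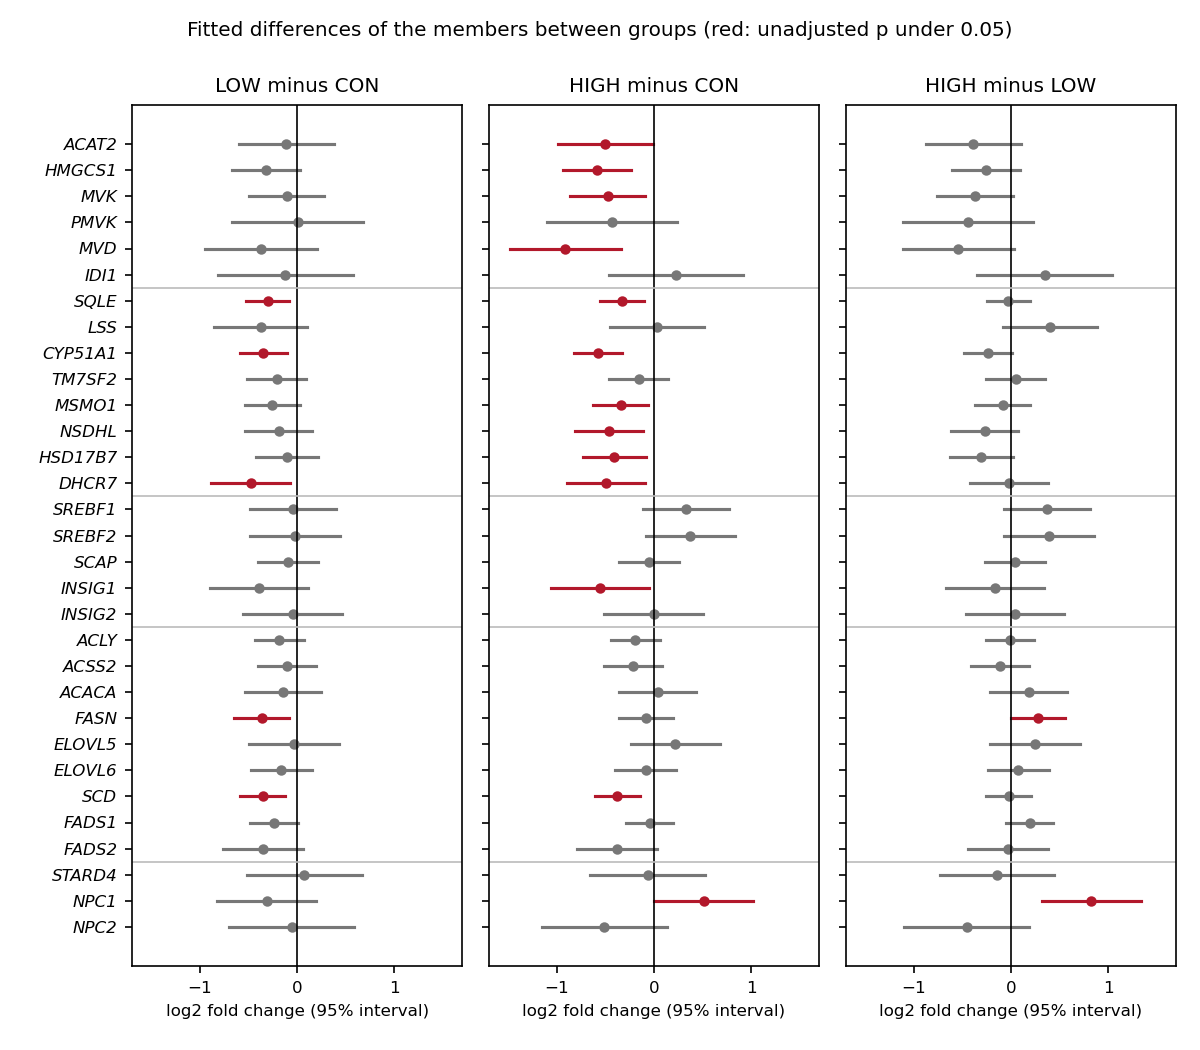
Points give the fitted log2 fold change of each member and bars its 95% interval from limma, in 1 panel for each comparison, with members in the same order by role and red for an unadjusted p under 0.05. Red points lie to the left of 0 for 5 members in LOW minus CON and for 12 in HIGH minus CON, and to the right for 1 in HIGH minus CON and 2 in HIGH minus LOW.

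The following counts were made without any test and on whole gene rows. In 10 members every LOW library lay below every CON library and in 0 every one lay above, against 3.06% and 3% of all genes. For HIGH against CON the counts were 10 and 0, against 4.19% and 5.2%, and for HIGH against LOW they were 3 lower and 4 higher, against 7.77% and 11.2%. In 7 members all 6 libraries with glucose lay below all 3 CON libraries, which held for 0.726% of all genes. These were HMGCS1, SQLE, CYP51A1, MSMO1, DHCR7, ACLY and SCD. The reverse pattern, with both glucose groups above CON, was seen in 0 members and in 0.698% of all genes.

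The mevalonate steps turn acetyl-CoA into the isoprene units from which sterols are built. HMGCS1, the synthase that makes HMG-CoA (chromosome 16, from 31409643 to 31430541 in the coordinates of the deposited table), was the most abundant enzyme of the set. Its FPKM was 115, 125 and 154 in CON, 106, 104 and 103 in LOW, and 75.7, 83.5 and 103 in HIGH. All LOW and HIGH libraries lay below the CON libraries, while LOW and HIGH overlapped only at HIGH 3. Its mean was 131 ± 20.4 in CON, 104 ± 1.51 in LOW and 87.5 ± 14.3 in HIGH (SD, n = 3 libraries). The log2 fold change was -0.33 ± 0.16 (SE) for LOW against CON (95% interval -0.67 to 0.02) and -0.58 ± 0.16 for HIGH against CON (95% interval -0.93 to -0.23).

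MVD, the decarboxylase that makes isopentenyl diphosphate, had the widest difference of the set between CON and HIGH and also a wide spread. Its FPKM was 33.3, 42.9 and 52.8 in CON, 31.3, 34.1 and 32.5 in LOW, and 16.2, 20.7 and 33.5 in HIGH. HIGH 1 and HIGH 2 lay below all other libraries, and HIGH 3 lay among the LOW libraries and just above CON 1. The HIGH mean was 0.546 times the CON mean, with a log2 fold change of -0.91 ± 0.25 (95% interval -1.48 to -0.34). The assembled transcript TCONS_00076700 made up 20.0% of this row. On the Ensembl transcript of MVD alone every HIGH library lay below every CON library, though HIGH 3 (26.0) was just below CON 1 (26.5). The log2 fold change was then -0.91 ± 0.27 (95% interval -1.52 to -0.29). MVK, mevalonate kinase, had an FPKM of 5.27, 5.71 and 5.75 in CON, 4.61, 5.14 and 5.79 in LOW, and 3.52, 3.52 and 5.07 in HIGH. Every HIGH library was below every CON library, and the log2 fold change of HIGH against CON was -0.48 ± 0.17 (95% interval -0.87 to -0.09). ACAT2, the cytosolic thiolase that starts the pathway, had 35.6, 41.4 and 57.6 in CON, 38.5, 42.4 and 40.9 in LOW, and 24.0, 30.9 and 40.3 in HIGH. Only HIGH 1 and HIGH 2 lay below the lowest CON library, and the log2 fold change was -0.50 ± 0.22 (95% interval -0.99 to -0.01). It was -0.31 without CON 3 and -0.31 without HIGH 1, and 2 of the 9 fits that each left out 1 library kept an unadjusted p under 0.05. The remaining enzymes of these steps, PMVK (2.15 to 5.70 over all libraries) and IDI1 (5.06 to 13.1), did not reach an unadjusted p under 0.05 in any comparison. Their largest and smallest values were both among the CON libraries and HIGH 1. In all, 0 of 6 mevalonate genes had an unadjusted p under 0.05 in LOW against CON and 4 of 6, all lower, in HIGH against CON, and the median log2 fold changes were -0.12 and -0.49.

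Among the squalene and sterol steps, CYP51A1, the lanosterol demethylase (chromosome 4, from 9361723 to 9376501), separated the groups most clearly. Its FPKM was 28.7, 26.3 and 27.9 in CON, 22.1, 20.9 and 22.1 in LOW, and 17.8, 17.4 and 20.4 in HIGH. The 3 groups did not overlap, with CON highest, LOW between and HIGH lowest. The LOW mean was 0.785 and the HIGH mean 0.669 times the CON mean. The log2 fold change was -0.35 ± 0.11 for LOW (95% interval -0.59 to -0.10) and -0.58 ± 0.11 for HIGH (95% interval -0.82 to -0.33), and HIGH against LOW was -0.23 ± 0.11 (95% interval -0.48 to 0.01). DESeq2 gave an adjusted p of 0.0184 and 2.09e-08 for the comparisons with CON.

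SQLE, the squalene epoxidase and an early oxygen-dependent step (chromosome 9, from 28005936 to 28027215), had an FPKM of 42.5, 38.4 and 41.2 in CON, 33.1, 32.0 and 33.6 in LOW, and 31.6, 32.4 and 33.1 in HIGH. The 6 libraries with glucose lay close together, below the lowest CON library. Its log2 fold change was -0.30 ± 0.10 for LOW (95% interval -0.53 to -0.08) and -0.33 ± 0.10 for HIGH (95% interval -0.55 to -0.11), and HIGH against LOW was -0.02 with a 95% interval of -0.25 to 0.20. DHCR7, the reductase that makes cholesterol from its direct precursor, had 16.1, 17.3 and 23.8 in CON, 13.2, 14.3 and 12.9 in LOW, and 10.9, 14.3 and 15.2 in HIGH. Both glucose groups lay below CON, of which CON 3 was much higher than the rest. Its log2 fold change was -0.48 ± 0.18 for LOW (95% interval -0.88 to -0.08) and -0.50 ± 0.18 for HIGH (95% interval -0.90 to -0.09). Without CON 3 these were -0.31 and -0.33, with neither at an unadjusted p under 0.05.

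MSMO1, the methylsterol oxidase, had an FPKM of 49.3, 48.0 and 59.3 in CON, 43.0, 41.1 and 46.7 in LOW, and 38.6, 39.6 and 45.1 in HIGH, again with both glucose groups below CON. Its log2 fold change was -0.26 ± 0.13 for LOW (95% interval -0.54 to 0.03) and -0.34 ± 0.13 for HIGH (95% interval -0.63 to -0.06). NSDHL, a sterol dehydrogenase, had 21.1, 22.5 and 28.3 in CON, 19.5, 22.2 and 20.8 in LOW, and 15.6, 16.0 and 20.4 in HIGH. For this gene HIGH lay below CON and LOW overlapped both, with a log2 fold change of -0.46 ± 0.15 for HIGH (95% interval -0.81 to -0.12). HSD17B7, a ketosteroid reductase of the same demethylation complex, had 7.77, 8.25 and 8.39 in CON, 7.37, 7.40 and 7.90 in LOW, and 5.23, 5.92 and 7.33 in HIGH. HIGH lay below both other groups, with a log2 fold change of -0.41 ± 0.14 against CON (95% interval -0.73 to -0.09). The assembled overlapping transcript HSD17B7-OT1 made up 51.0% of this row. On the Ensembl transcript alone HIGH overlapped both groups, since HIGH 3 (3.91) lay above CON 2 (3.83) and all LOW libraries (3.42, 3.84 and 3.74). Its log2 fold change against CON was then -0.60 ± 0.23 (95% interval -1.12 to -0.07). LSS, lanosterol synthase (4.74 to 8.39 over all libraries), and TM7SF2, a sterol reductase (21.4 to 30.7), did not reach an unadjusted p under 0.05. In all, 3 of 8 genes of these steps were lower in LOW and 6 of 8 lower in HIGH at that level, with median log2 fold changes of -0.28 and -0.37.

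**Figure D3:**
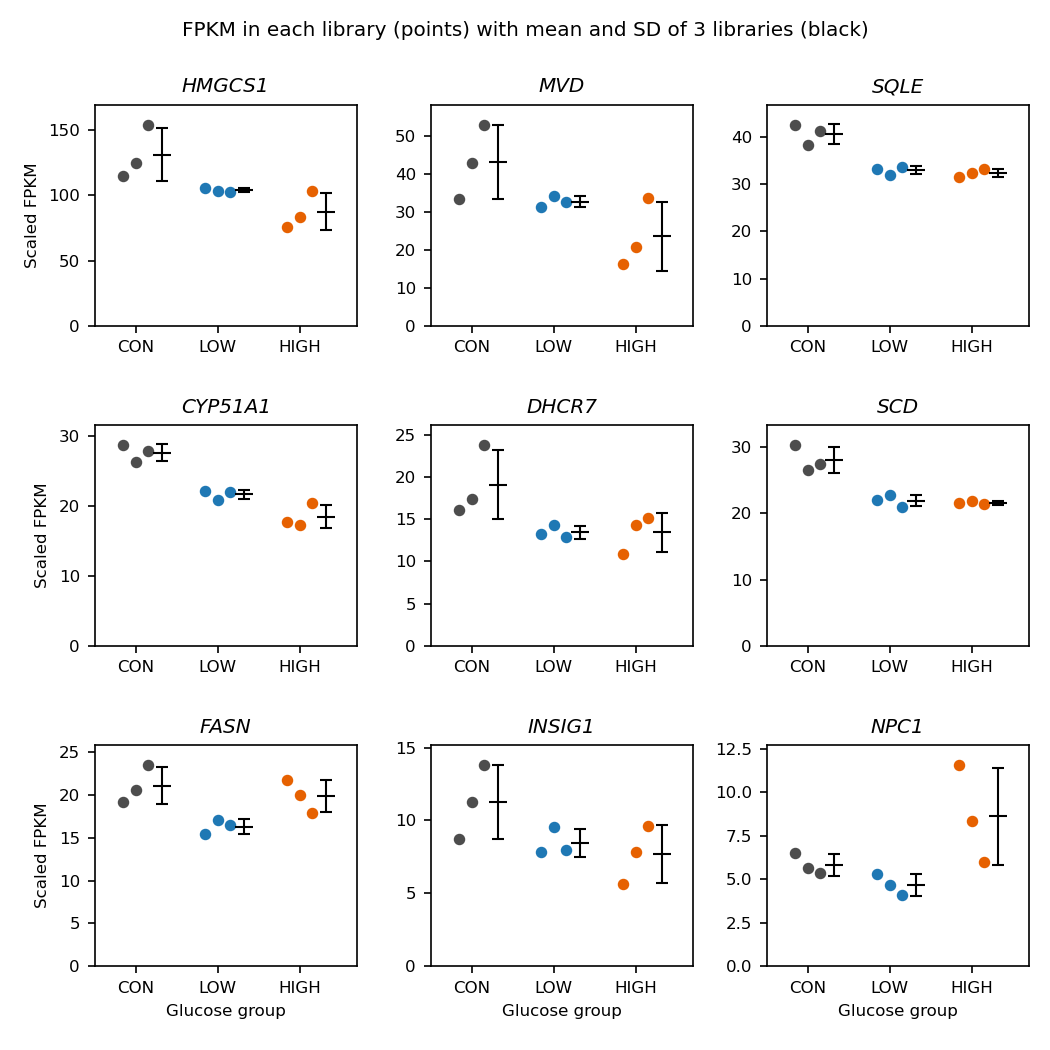
Points give the scaled FPKM of 9 members in each library by glucose group, and the black mark and bar give the mean and SD of 3 libraries, on axes that start at 0. The CON libraries of CYP51A1 (26.3 to 28.7), SQLE (38.4 to 42.5) and SCD (26.6 to 30.3) stand above all libraries with glucose, and NPC1 was highest in HIGH 1 at 11.6.

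Summed over the 14 sterol enzymes, the FPKM was 400, 420 and 505 in CON, 357, 362 and 364 in LOW, and 283, 307 and 364 in HIGH. The CON sums lay above all sums with glucose, and HIGH 3 was level with LOW. The mean was 442 ± 56.2 in CON, 361 ± 3.79 in LOW and 318 ± 41.6 in HIGH (SD, n = 3). The 9 fatty acid enzymes summed to 209, 190 and 196 in CON, 172, 175 and 166 in LOW, and 185, 191 and 177 in HIGH. Here LOW was lowest, and HIGH 2 was just above CON 2.

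**Figure D4:**
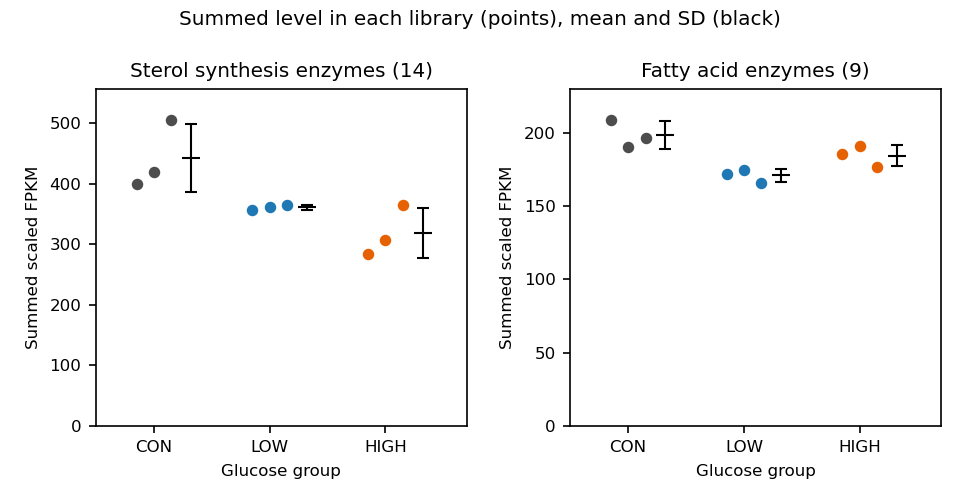
Points give the summed scaled FPKM of the 14 sterol enzymes (left) and of the 9 fatty acid enzymes (right) in each library, with the mean and SD of 3 libraries in black. The sterol sum lay between 400 and 505 in CON and between 283 and 364 with glucose, and the fatty acid sum was lowest in LOW, at 166 to 175.

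Of the SREBP control genes, INSIG1, the retention protein and itself an SREBP target, was the one with an unadjusted p under 0.05. Its FPKM was 8.75, 11.3 and 13.8 in CON, 7.87, 9.55 and 7.97 in LOW, and 5.62, 7.82 and 9.61 in HIGH. On the whole row the groups overlapped, since CON 1 lay below LOW 2 and HIGH 3. The log2 fold change of HIGH against CON was -0.56 ± 0.22 (95% interval -1.06 to -0.05). It was -0.35 without HIGH 1, and 5 of 9 fits that left out 1 library kept an unadjusted p under 0.05. The assembled transcript TCONS_00225918 of this row was at 0 in CON 1. On the Ensembl transcript of INSIG1 alone, CON had 8.75, 10.3 and 12.9, LOW 7.34, 8.62 and 7.09, and HIGH 4.84, 6.95 and 7.97. Both glucose groups then lay below CON without overlap. The log2 fold change was -0.45 ± 0.21 for LOW (95% interval -0.93 to 0.02) and -0.70 ± 0.21 for HIGH (95% interval -1.17 to -0.22). These values were computed after the data had been seen. SREBF2 had an FPKM of 16.3, 14.7 and 12.5 in CON, 12.1, 12.8 and 18.6 in LOW, and 22.3, 19.5 and 15.1 in HIGH, with a log2 fold change of 0.37 ± 0.20 for HIGH against CON (95% interval -0.09 to 0.84). SCAP had 16.8, 19.4 and 23.3 in CON, 17.5, 19.8 and 18.1 in LOW, and 18.1, 19.8 and 19.0 in HIGH. The 3 groups overlapped for SCAP and the 95% interval of HIGH against CON ran from -0.36 to 0.26. SREBF1 (1.67 to 2.96 over all libraries) had every HIGH library above every LOW library. Its log2 fold change of HIGH against LOW was 0.37 ± 0.20 (95% interval -0.07 to 0.81). INSIG2, the other retention protein, ranged from 2.38 to 4.13 with all groups overlapping. Its Ensembl transcript was at 0 in all 9 libraries, so the INSIG2 row held assembled transcripts only.

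The gene row of SREBF2 adds up 3 transcripts, and its high value in LOW 3 came from 1 of them. The assembled transcript TCONS_00204779, at the end of the gene, had a scaled FPKM of 7.54 in LOW 3 and of 0.306 to 0.808 in the other 8 libraries. The Ensembl transcript of SREBF2 had 15.6, 14.2 and 11.5 in CON, 11.7, 12.1 and 10.8 in LOW, and 22.0, 19.0 and 14.6 in HIGH. On this transcript alone HIGH lay above LOW without overlap, with a log2 fold change of 0.66 ± 0.17 (95% interval 0.27 to 1.05) and of 0.42 ± 0.17 against CON (95% interval 0.03 to 0.81). This was computed after the values had been seen. Whether the counting used strand is not given in the sources used here, so SREBF2 and its antisense transcript in the same row cannot be told apart with certainty. The SREBF1 row likewise includes SREBF1-OT1, labelled as an overlapping transcript, and on its Ensembl transcript alone HIGH against LOW was 0.52 ± 0.21 (95% interval 0.05 to 0.99). For MVK, the Ensembl transcript alone gave -0.91 ± 0.28 for HIGH against CON (95% interval -1.54 to -0.28), against -0.48 for the whole row.

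Among the fatty acid genes, SCD, the desaturase that makes oleate (chromosome 22, from 20409240 to 20421839), was lower with glucose at both doses. Its FPKM was 30.3, 26.6 and 27.4 in CON, 22.0, 22.7 and 21.0 in LOW, and 21.5, 21.8 and 21.3 in HIGH. The 6 libraries with glucose lay together below all CON libraries. The log2 fold change was -0.36 ± 0.10 for LOW (95% interval -0.59 to -0.12) and -0.38 ± 0.10 for HIGH (95% interval -0.61 to -0.15), and DESeq2 gave an adjusted p of 5.66e-07 and 1.26e-09. HIGH against LOW was -0.02, with a 95% interval of -0.25 to 0.21.

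FASN, the fatty acid synthase, had its lowest values in LOW. It had an FPKM of 19.2, 20.6 and 23.5 in CON, 15.4, 17.1 and 16.4 in LOW, and 21.7, 20.0 and 17.9 in HIGH. LOW lay below both other groups, which overlapped. Its log2 fold change was -0.37 ± 0.12 for LOW against CON (95% interval -0.65 to -0.09), 0.28 ± 0.12 for HIGH against LOW (95% interval 7.55e-05 to 0.56) and -0.09 for HIGH against CON, with a 95% interval of -0.37 to 0.20. FADS1, a polyunsaturated fatty acid desaturase, had 12.3, 12.3 and 12.7 in CON, 10.1, 11.2 and 10.4 in LOW, and 11.9, 12.9 and 11.4 in HIGH. LOW was again below both other groups without overlap, but its log2 fold change against CON of -0.24 ± 0.11 had a 95% interval of -0.48 to 0.01.

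ACLY, which makes cytosolic acetyl-CoA from citrate and so links glucose carbon to both branches, had an FPKM of 37.7, 36.3 and 44.3 in CON, 34.4, 35.3 and 33.9 in LOW, and 33.5, 34.3 and 35.4 in HIGH. All libraries with glucose lay below CON, by little, and the log2 fold change was -0.18 ± 0.11 for LOW (95% interval -0.43 to 0.07) and -0.19 ± 0.11 for HIGH (95% interval -0.44 to 0.06). ELOVL5, an elongase, had 56.4, 45.1 and 31.3 in CON, 44.7, 42.0 and 39.7 in LOW, and 52.4, 55.9 and 42.8 in HIGH. Its CON libraries held both the highest and the lowest value, so the groups overlapped throughout. The other fatty acid genes did not reach an unadjusted p under 0.05 and ranged from 10.9 to 15.6 for ACSS2, from 7.57 to 11.4 for ACACA, from 9.33 to 13.4 for ELOVL6 and from 12.5 to 24.4 for FADS2. In all, 2 of 9 fatty acid genes were lower in LOW and 1 of 9 lower in HIGH against CON at an unadjusted p under 0.05, with median log2 fold changes of -0.18 and -0.09.

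Of the transport genes, NPC1, the lysosomal membrane protein that exports cholesterol (chromosome 23, from 33343432 to 33391114), was the one member higher in HIGH than in CON at an unadjusted p under 0.05. Its FPKM was 6.53, 5.64 and 5.33 in CON, 5.31, 4.66 and 4.07 in LOW, and 11.6, 8.34 and 6.00 in HIGH. HIGH 1 and HIGH 2 lay above all other libraries, HIGH 3 lay between CON 1 and CON 2, and every LOW library was below every CON library. Its log2 fold change was 0.83 ± 0.23 for HIGH against LOW (95% interval 0.32 to 1.34) and 0.51 ± 0.23 for HIGH against CON (95% interval 0.00394 to 1.02). The difference from CON was 0.28 without HIGH 1 and 0.75 without HIGH 3, and it kept an unadjusted p under 0.05 in 2 of 9 fits that left out 1 library. DESeq2 gave an adjusted p of 0.00997 for HIGH against LOW.

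NPC2, the soluble partner of NPC1, had an FPKM of 174, 258 and 390 in CON, 245, 265 and 240 in LOW, and 142, 177 and 241 in HIGH. It differed by more within CON than between the group means, and the log2 fold change of HIGH against CON was -0.51 ± 0.29 (95% interval -1.15 to 0.13). STARD4, a cytosolic sterol carrier, had 9.08, 9.55 and 10.8 in CON, 15.5, 8.36 and 8.42 in LOW, and 12.6, 7.71 and 8.38 in HIGH. Its high values in LOW 1 and HIGH 1 went with a different transcript. The Ensembl transcript of STARD4 carried 15.5 and 12.5 FPKM in these 2 libraries and at most 0.0103 in the other 7, in which TCONS_00247837 carried nearly all.

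**Figure D5:**
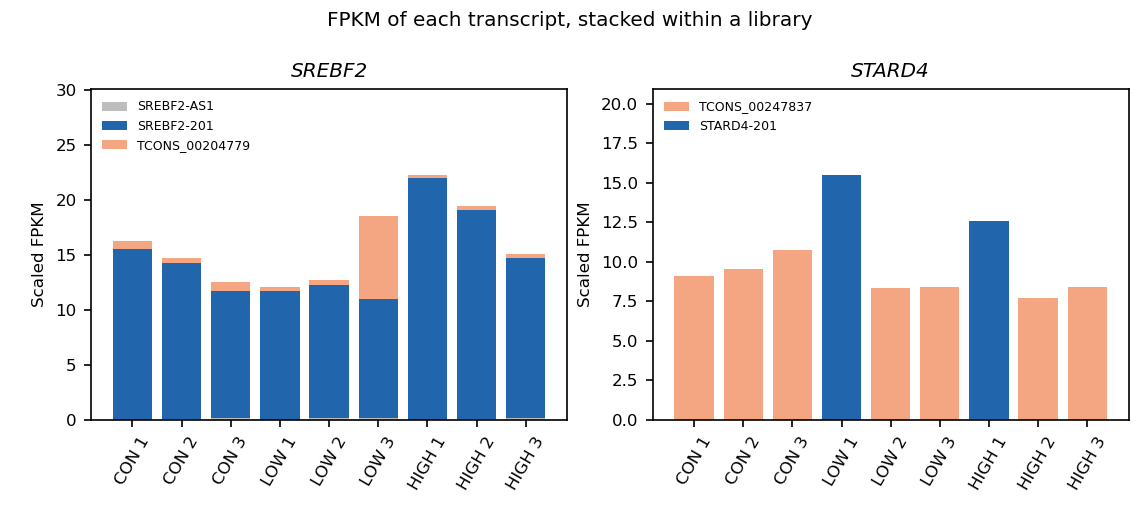
Stacked bars give the scaled FPKM of each transcript of SREBF2 (left) and STARD4 (right) in each library. TCONS_00204779 added 7.54 to SREBF2 in LOW 3, and STARD4 was assigned to its Ensembl transcript in LOW 1 and HIGH 1 and to TCONS_00247837 in the other 7 libraries.

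The members, like most genes tested, varied within CON and within HIGH in a shared way. From CON 1 to CON 3 and from HIGH 1 to HIGH 3 the level differed in the same direction in 26 of 31 members (83.9%), and in 73.6% of all genes tested. NPC2, PMVK, MVD, ACAT2 and INSIG1 were higher in the third library of both groups, by 1.16, 1.31, 0.66, 0.69 and 0.65 in CON and by 0.76, 0.44, 1.04, 0.75 and 0.76 in HIGH on the log2 scale. IDI1, LSS, ACACA, ELOVL5 and NPC1 were lower there, and IDI1 differed by -1.30 in CON and -0.77 in HIGH. Smaller differences than in these genes were seen in SQLE, CYP51A1, SCD and FADS1. They were -0.04, -0.04, -0.14 and 0.05 in CON and 0.07, 0.20, -0.01 and -0.07 in HIGH. The third libraries had the higher FPKM sums, 1370942 against 803786 in CON and 1241102 against 954021 in HIGH, and the part of this in the results was not tested.

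CON 3 had the highest CON value in 19 of 31 members and HIGH 1 the lowest HIGH value in 15. With both left out, a choice made after the data were seen, 6 members instead of 12 were lower in HIGH than in CON at an unadjusted p under 0.05 and 0 were higher, while 1.64% of all genes were lower instead of 2.67%. These were CYP51A1, SQLE, SCD, HMGCS1, MVD and INSIG2, with log2 fold changes of -0.54, -0.30, -0.39, -0.36, -0.52 and -0.39. The INSIG2 value is that of its assembled transcripts. The LOW comparison then had 7 lower members instead of 5, among them IDI1 at -0.48 and LSS at -0.59, while the share of all genes was 2.29% instead of 0.903%. CYP51A1, SQLE and SCD kept an unadjusted p under 0.05 in both comparisons with CON in all 9 fits that each left out 1 library. HMGCS1 and MVD did so in HIGH against CON, and NPC1 in HIGH against LOW. In HIGH against CON, DHCR7 and NSDHL did so in 7 fits and MVK, MSMO1 and HSD17B7 in 6, and FASN did so in 8 for LOW against CON and in 3 for HIGH against LOW. The count of lower members in HIGH was 5 without HIGH 1, 6 without HIGH 2, 8 without CON 2, 8 without CON 3, and 11 to 15 without any other. The share of all genes that were lower was 1.27%, 1.56%, 1.61% and 1.56% in the first 4 of these fits, 6.46% without HIGH 3 and 9.58% without CON 1.

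Of 50 other genes of sterol and fatty acid metabolism, 47 were in the table and 45 were tested. Their median log2 fold change was -0.02 in both comparisons with CON, and 0 of 45 reached an adjusted p under 0.05 with limma. In LOW against CON 1 of 45 was lower at an unadjusted p under 0.05 and in HIGH against CON 3 of 45 were, with 0 higher in either. Of all genes 0.903% and 2.67% were lower and 0.928% and 4.1% higher in these comparisons. AACS, a synthetase that returns ketone carbon to lipid synthesis, had 12.4, 12.2 and 14.8 in CON, 10.2, 10.6 and 9.84 in LOW, and 9.72, 10.5 and 9.60 in HIGH. Both glucose groups lay below CON. Its log2 fold change was -0.35 ± 0.12 for LOW (95% interval -0.62 to -0.08) and -0.39 ± 0.12 for HIGH (95% interval -0.66 to -0.12). ACSL3, an acyl-CoA synthetase, was lower in HIGH by -0.42 ± 0.11 (95% interval -0.66 to -0.18), and STARD5, another sterol carrier, by -0.52 ± 0.18 (95% interval -0.92 to -0.12).

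Against LOW, 4 of 45 were higher in HIGH at an unadjusted p under 0.05, and 0 were lower. Of all genes 5.21% were higher and 2.46% lower. Whether the list differed from all genes was not tested. Among the 4 higher genes were MBTPS1, the protease that first cleaves SREBPs (0.32 ± 0.14 on the log2 scale), and the elongase ELOVL4 (0.67 ± 0.27). ACACB (0.76 ± 0.34), whose FPKM stayed at or below 0.27, was another.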

How the data were processed

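RNA of 9 libraries was sequenced as paired reads. The authors aligned filtered reads with Hisat2 and assembled transcripts with Stringtie, and their methods name HTSeq and DESeq2. The submitters' processing notes also list TopHat2 and STAR 2.5.1b. The genome build is not given in the sources used here, so coordinates are those of the deposited table. Levels are FPKM per gene and per transcript as deposited by the authors, with 1 column a library. A table of estimated counts for genes was also deposited by the authors. In each library 100% of the single-transcript genes checked had a count within 3% of FPKM times genomic span times 1 library factor, and 1 FPKM corresponded to 48.0 to 71.3 counts per kb of span. The depth in reads is therefore not given by these tables, and no counting interval is printed.

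Libraries were scaled to a common median of 11689 genes with an FPKM of 1 or more in every library, with scale factors of 0.900 to 1.07. limma 3.58.1 (R 4.3.3) was fitted with a mean-variance trend to log2(FPKM + 0.1) of all 9 libraries and 3 groups. Fold changes are on that scale, which understates those of low genes. Genes needed an FPKM of 0.1 in 3 libraries and a span of 300 bases. Benjamini-Hochberg adjustment ran over 24365 genes. Genes with an adjusted p under 0.05 and a log2 fold change beyond 1 in either direction were called. Tests were two-sided. Values after ± are standard errors for fold changes and SDs for means. The design was conditional: edgeR would have been the main test had the counts been counted reads. edgeR 4.0.16 and DESeq2 1.42.0 were run on the counts as alternatives. In simulated data for HIGH against CON on 24406 genes, limma recovered 52 of 100 genes changed by 1 on the log2 scale and 100 of 100 changed by 2. It also called 12 other genes. The draws were independent between libraries, with a dispersion fixed at 0.05 and depth taken from the library factor. Changed genes had a mean FPKM of 1 or more. Smaller changes, such as those of the members, and deviations shared between libraries were not simulated.

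The members and lists were chosen with earlier results of these data known. Values in every library are given for members with an unadjusted p under 0.05 in any comparison, members without overlap in at least 2 comparisons, and the 2 most abundant members of each role. The same replicate number in different groups was treated as a name. The correlation of the deviations of same-numbered libraries from their group means ranged from -0.03 to 0.42 over 9 pairs, and not every pair exceeded 0.1. It was 0.42 for CON 1 with HIGH 1 and for CON 3 with HIGH 3. Different-numbered pairs ranged from -0.44 (CON 1 with HIGH 3) to 0.15 (CON 3 with LOW 2), and CON 3 with HIGH 1 had -0.42. Whether same-numbered libraries shared a batch was not tested. Transcript counts and sequences were not used here. Some genes of the pathway list are counted in its totals but not reported here individually.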

Additional observations from a re-analysis of the deposited data

How the results depend on the processing

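No member passed the adjusted threshold in any comparison under any limma or edgeR setting. DESeq2 gave an adjusted p under 0.05 to 5 members over the 3 groups, where it did so for 534 of 24365 genes. Single-gene directions were the same under every setting for each member with an unadjusted p under 0.05. The counts at an unadjusted p under 0.05 moved more, and unless a value shows it the cause was not tested. Lower members in LOW against CON, 5 as reported, were 9 with DESeq2, 13 with FPKM not scaled and 8 with scaling on the 75th percentile. Of all genes 2.43%, 2.03% and 0.915% were then lower, against 0.903% as reported. FPKM without scaling placed the median of all genes at -0.09 in LOW against CON and 0.11 in HIGH against LOW. It also gave a member median of -0.29 in LOW and 17 members over the 3 groups, where 6.02% of all genes were. Without overlap, 17 members were lower in LOW against CON and 14 in both glucose groups, where 1947 and 653 of 24365 genes were. Scaling on the 75th percentile placed the median of all genes at 0.12 in HIGH against CON and 0.11 in HIGH against LOW, and gave 7 members higher without overlap in HIGH against LOW, where 3020 of 24365 genes were. Higher members in HIGH against CON, 1 as reported, were 0 with no filter, with FPKM not scaled and with only the 2 groups compared. They were 0 without CON 3 and HIGH 1 and 2 with Ensembl transcripts alone, where INSIG2 and STARD4 kept their whole rows. Of all genes 3.54%, 2.61%, 2.44%, 1.97% and 4.1% were then higher, in the same order. The median log2 fold change in HIGH was -0.38 with edgeR and -0.38 with DESeq2. Lower members in HIGH against LOW, 0 as reported, were 2 with edgeR, DESeq2, no filter or only 2 groups, and 1 with Ensembl transcripts. Of all genes 2.40%, 5.18%, 2.41%, 4.90% and 2.46% were then lower, in the same order. Higher members in HIGH against LOW, 2 as reported, were 1 with edgeR, with a pseudocount of 1 or without CON 3 and HIGH 1. They were 4 with DESeq2 or with Ensembl transcripts alone. The shares of all genes were 4.34%, 5.64%, 4.07%, 7.54% and 5.22%, in that order. Leaving out CON 3 and HIGH 1 gave 6 lower members in HIGH against CON and 6 over the 3 groups. Of all genes 1.64% and 4.60% were. The fit with a replicate block gave 11 lower members in LOW, 14 in HIGH against CON, 5 in HIGH against LOW and 16 over the 3 groups, where 1.37%, 6.99%, 7.22% and 12.2% of all genes were, but the replicate numbers were not shown to pair the libraries. Leaving out each library in turn gave 3 to 9 lower members in LOW against CON (3 without LOW 1, 9 without CON 1), 5 to 15 lower and 0 to 2 higher in HIGH against CON (5 without HIGH 1), 0 to 7 lower and 1 to 4 higher in HIGH against LOW (7 and 4 without HIGH 3), and 6 to 14 over the 3 groups. Of all genes, 0.702% to 1.82% were then lower in LOW against CON, 1.27% to 9.58% lower in HIGH against CON and 1.20% to 7.10% lower in HIGH against LOW. The higher shares of all genes were 1.97% to 16.0% in HIGH against CON and 2.499% to 8.88% in HIGH against LOW. Over the 3 groups, 2.62% to 14.5% of all genes had an unadjusted p under 0.05. The members' median in HIGH against CON then lay between -0.30 and -0.19. A fit that leaves 2 libraries in a group shares its spread with the other groups.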
